A study of Mus musculus with 2 samples.

Results

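Dll1, Dll4, Jag1 and Jag2, 4 genes that encode activating ligands of Notch receptors, were followed across tumor cells and stroma of 2 mouse mammary tumors. They were chosen by gene symbol, and each stood once among the 32285 genes of the deposited matrices. The Dll1+ group was 1 untreated control tumor labelled Dll1+, and the Dll1- group was 1 untreated control tumor labelled Dll1-. From each, live cells without CD45, the common leukocyte antigen, were sorted and sequenced in droplets with 3' tags and unique molecular identifiers (UMIs). The labels used here do not state the basis of the names Dll1+ and Dll1-, the tumor model, the strain or the age of the mice. The antibody mix named in the protocol also held CD31, an endothelial marker, and the labels do not state whether CD31+ cells were gated out. Endothelial-like cells were present in both libraries.

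Notch signaling passes between touching cells. A ligand of the Delta-like or Jagged family on one cell binds a Notch receptor on its neighbour, the receptor is cut by ADAM and gamma-secretase proteases, and its freed intracellular domain joins the DNA-binding protein RBPJ to switch on targets such as Hes1 and Nrarp. Ligand uptake by the sending cell, which needs the ubiquitin ligases Mib1 or Neurl1, provides the pull that exposes the cut site. Dll4 is best known from sprouting endothelium, Jag1 from vessel walls and basal epithelium, Jag2 from epidermis and endothelium, and Dll1 from arterial endothelium and from epithelial stem and secretory cells.

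The sequences just upstream of 3 of the genes are shown because the ligands were found in different cell classes, so that their start regions can be read side by side. In GENCODE M21 on GRCm38, the assembly that mm10 names, all 4 are protein coding: Dll1 lies on the minus strand of chr17:15367354-15376872, Dll4 on the plus strand of chr2:119325784-119335962, Jag1 on the minus strand of chr2:137081456-137116644 and Jag2 on the minus strand of chr12:112907819-112929776. The letters come from RefSeq on GRCm38.p6 and stop where the gene's own first annotated exon begins. Capitals mark matches, on either strand, to the E-box CANNTG or the N-box CACNAG, the letters bound by basic helix-loop-helix factors of the Hes and Ascl families among others.
Dll1 promoter, chr17:15376933-15377182, minus strand: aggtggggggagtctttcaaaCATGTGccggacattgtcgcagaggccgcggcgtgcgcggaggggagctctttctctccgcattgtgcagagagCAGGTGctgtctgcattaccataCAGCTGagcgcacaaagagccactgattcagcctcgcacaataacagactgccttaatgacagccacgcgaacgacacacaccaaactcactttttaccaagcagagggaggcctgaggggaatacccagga
Dll4 promoter, chr2:119325534-119325783, plus strand: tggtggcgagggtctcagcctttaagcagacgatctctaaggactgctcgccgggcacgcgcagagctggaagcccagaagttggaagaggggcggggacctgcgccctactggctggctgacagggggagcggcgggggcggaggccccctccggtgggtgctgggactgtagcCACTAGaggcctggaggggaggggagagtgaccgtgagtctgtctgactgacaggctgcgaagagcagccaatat
Jag1 promoter, chr2:137116645-137116770, minus strand: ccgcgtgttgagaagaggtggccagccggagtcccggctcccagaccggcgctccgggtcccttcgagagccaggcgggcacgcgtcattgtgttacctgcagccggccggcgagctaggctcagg
The Dll1 window held 3 E-boxes and no N-box, and the Dll4 window held 1 N-box and no E-box. In the 250 bases before the RefSeq start, Jag1 held 1 E-box, which lies in bases annotated as exon by GENCODE and is not printed, and Jag2, whose window is exonic in GENCODE, held neither. Of 32851 mouse promoters of the same length, 66.2% held an E-box and 36.7% an N-box. The RBPJ letters TGGGAA and the TATA letters TATAAA were in none of the 4 windows, against 21.6% and 12.4% of promoters. Such matches describe letters only.

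The Dll1+ library had 13819 barcodes and 117230907 UMIs, and the Dll1- library had 13097 barcodes and 135960457 UMIs. After filtering, 9685 Dll1+ and 10132 Dll1- cells remained, with a median of 7882 and 9904 UMIs. The libraries shared 109 barcodes, of which 46 were kept in both and 33 of those fell in the same class. Cells were clustered without the 4 ligands and fell into 5 classes with at least 50 cells in each library. Epithelial-like cells numbered 8179 in the Dll1+ and 8677 in the Dll1- library, and all 14 epithelial markers were detected in at least 20% of them. A cluster of 332 Dll1+ and 315 Dll1- cells was led by Krt5 with basal and some skin keratinocyte genes and is called Krt5-led. It had 12 of 12 basal markers past that share in the Dll1+ and 8 of 12 in the Dll1- library. Of 12 keratinocyte markers only 3 in Dll1+ and 5 in Dll1- were past it, and of 14 epithelial markers 11 in both. Fibroblast-like cells numbered 332 and 573, pericyte-like cells 185 and 119 and endothelial-like cells 256 and 280, with 12 of 12 fibroblast and 12 of 12 endothelial markers past that share in both libraries, and 10 and 9 of 10 pericyte markers. Levels are CPM, a gene's UMIs relative to all UMIs of a class in a library. With 1 library per group there is no replicate error and no test, and the 95% intervals given throughout cover counting error only.

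**Figure D1:**
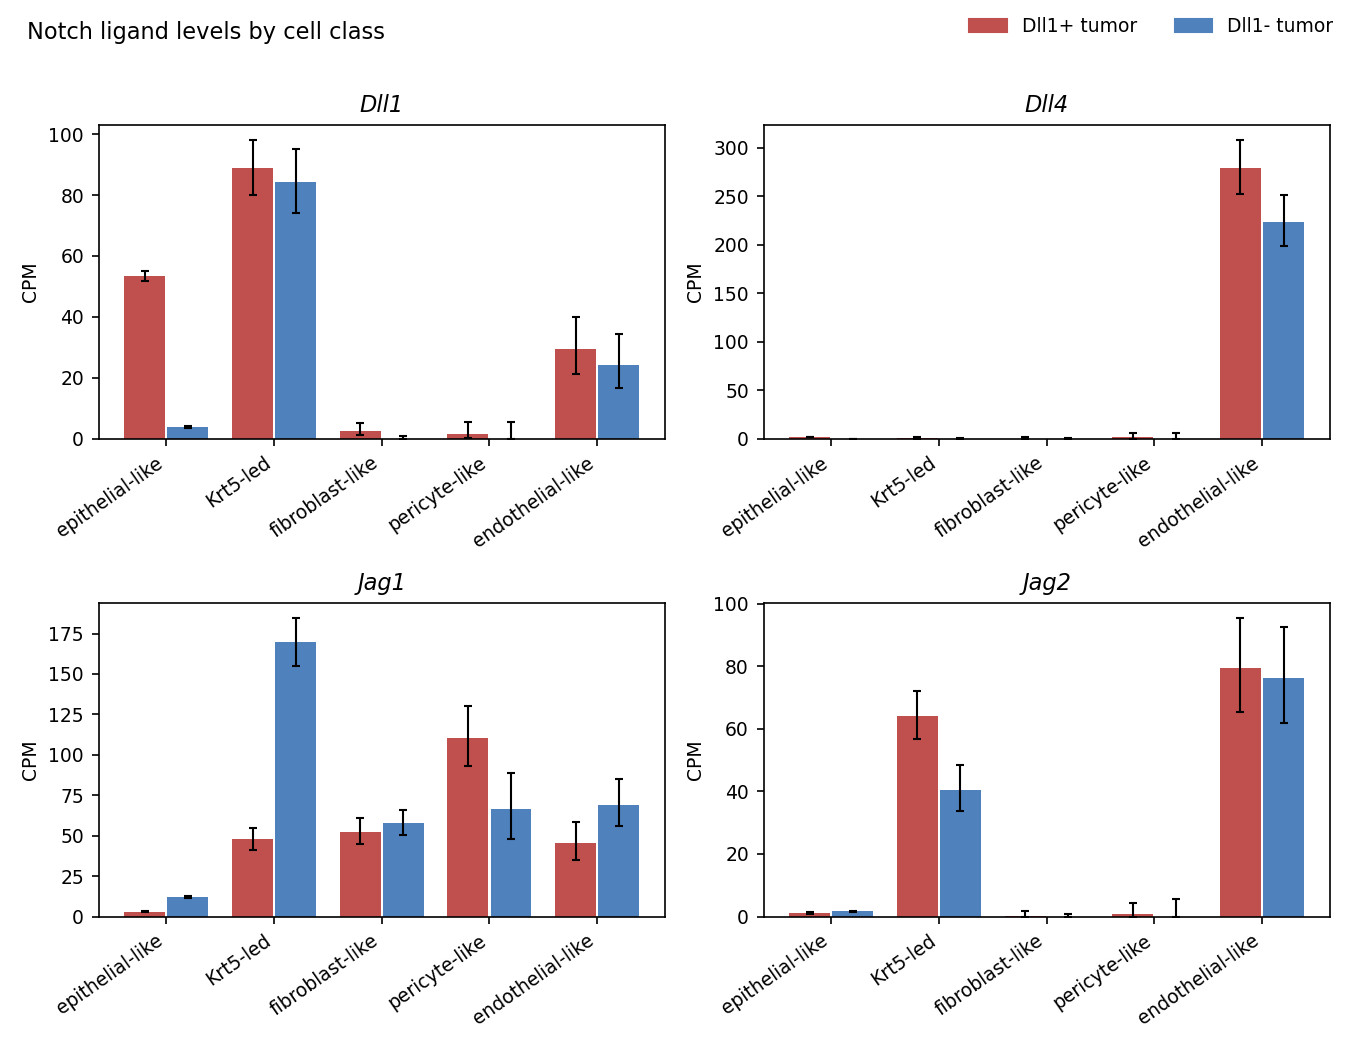
CPM of Dll1, Dll4, Jag1 and Jag2 in the 5 cell classes, Dll1+ tumor in red and Dll1- tumor in blue, 1 library each; bars are class sums and lines are exact Poisson 95% intervals. Epithelial-like cells had 53.4 (Dll1+) and 3.97 (Dll1-) CPM of Dll1, Dll4 was high in endothelial-like cells of both, and Jag1 was spread over Krt5-led and stromal classes.

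Each ligand had its own distribution over the classes. In the Dll1+ library the classes with most Dll1 were, in order, Krt5-led cells (88.8 CPM, interval 80.1 to 98.1), epithelial-like cells (53.4, 51.8 to 55.0) and endothelial-like cells (29.5, 21.3 to 39.9). In the Dll1- library the order was Krt5-led (84.3, 74.3 to 95.2), endothelial-like (24.4, 16.7 to 34.4) and epithelial-like cells (3.97, 3.60 to 4.37). None of these neighbours overlapped within a library, so epithelial-like cells held the second place in the Dll1+ and the third in the Dll1- tumor. Fibroblast-like and pericyte-like cells came last in both, with 8 and 2 Dll1 UMIs in the Dll1+ library and 0 in the Dll1- library, where a count of 0 allows up to 0.747 CPM in fibroblast-like and 4.52 CPM in pericyte-like cells.

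Dll4 and Jag2 were concentrated in few classes, and Jag1 was spread over all. Dll4 stood at 279 CPM in Dll1+ and 224 CPM in Dll1- endothelial-like cells and at 1.83 CPM or less in every other class, where the neighbours' intervals overlapped. Jag2 was highest in endothelial-like cells (79.4 in Dll1+, 76.1 in Dll1-), then in Krt5-led cells (64.1 and 40.5 CPM), and the intervals of these classes overlapped in the Dll1+ but not in the Dll1- library. In the other 3 classes Jag2 was at 1.67 CPM or less. Jag1 was highest in pericyte-like cells of the Dll1+ tumor (110 CPM, 93.0 to 130.2), while fibroblast-like (52.4), Krt5-led (47.7) and endothelial-like cells (45.7) followed with overlapping intervals. In the Dll1- tumor Krt5-led cells led for Jag1 (170 CPM, 155 to 185), and endothelial-like (69.3), pericyte-like (66.2) and fibroblast-like cells (57.7) overlapped one another. Epithelial-like cells had the least Jag1 in both libraries.

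**Figure D2:**
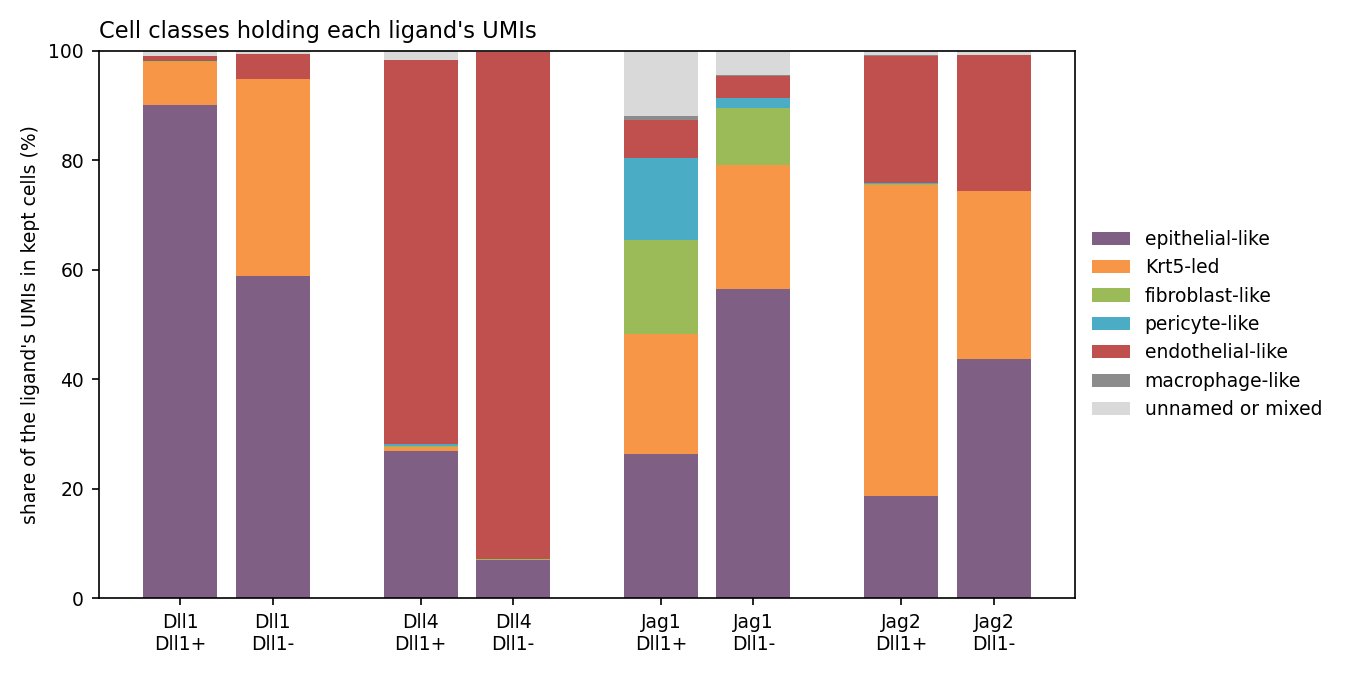
Share of each ligand's UMIs, in percent of all its UMIs in kept cells, that fell in each cell class, with the Dll1+ library left of the Dll1- library for each gene. Epithelial-like cells held 90.1% of Dll1 UMIs in the Dll1+ and 58.9% in the Dll1- library, and endothelial-like cells held most Dll4 UMIs in both.

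The large epithelial class shaped where the transcripts lay. Epithelial-like cells made up 84.5% of Dll1+ and 85.6% of Dll1- cells. They held 4428 of 4916 Dll1 UMIs in the Dll1+ library (90.1%, Clopper-Pearson interval 89.2 to 90.9) and 418 of 710 in the Dll1- library (58.9%, 55.2 to 62.5). Krt5-led cells, 3.43% of Dll1+ and 3.11% of Dll1- cells, held 7.83% of Dll1 UMIs in the Dll1+ and 36.1% in the Dll1- library. For Jag1 the epithelial-like share was 26.3% in Dll1+ and 56.4% in Dll1-, and for Jag2 it was 18.6% and 43.8%. Endothelial-like cells, 2.64% of Dll1+ and 2.76% of Dll1- cells, held 70.1% of Dll4 UMIs in the Dll1+ and 92.5% in the Dll1- library.

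In epithelial-like cells, Dll1, the ligand for which the tumors are named, was 13.4-fold higher in the Dll1+ library, a log2 ratio of CPM plus 1 of 3.45. Bounds given for a ratio here and below are those of the CPM ratio without the added 1 and can lie beyond it for genes of low level, as here, where they were 3.60 and 3.90. A Dll1 UMI was found in 28.8% of Dll1+ cells (27.8 to 29.8) and 3.62% of Dll1- cells (3.24 to 4.03). With each cell thinned to 2000 UMIs the shares were 11.0% and 0.813%. Fibroblast-like cells, a class that held little Dll1, gave 0.627% in the Dll1+ library (2 of 319 cells) and 0 of 545 cells in the Dll1- library, which allows up to 0.550%, after the same thinning. Median depth was 8067 and 10663 UMIs in epithelial-like cells and 9251 and 6628 in fibroblast-like cells of the Dll1+ and Dll1- libraries, and thinning left out 594 and 185 epithelial-like cells. At least 3 Dll1 UMIs were counted in 464 Dll1+ and 17 Dll1- epithelial-like cells, up to 16 in the Dll1+ and 10 in the Dll1- library. Of 15259 genes measured in this class, 26.5% lay at least 1.5-fold apart between the libraries, 20.6% higher and 5.91% lower in Dll1+, with a median log2 ratio of 0.20. Among the 4 ligands Dll1 and Dll4 were past 1.5-fold higher, Jag1 was past 1.5-fold lower and Jag2 was between. These calls use the ratio of CPM plus 1, and without the added 1 Jag2 was 1.52-fold lower in Dll1+.

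The Dll1 level differed widely among epithelial sub-states, which are named here by their leading genes. Cells led by Prpmp5 and Prh1, genes of salivary-type secretory proteins, had 95.4 CPM (92.1 to 98.8) and held 3151 of the 4428 Dll1+ epithelial Dll1 UMIs; they numbered 4508 in the Dll1+ and 2 in the Dll1- library. The Dcpp1/Ptn cells (1241 and 0 cells) had 33.5 CPM, and the Tslp/Fgfbp1 cells (707 and 4 cells) had 22.1 CPM in the Dll1+ library. These 3 sub-states were nearly absent from the Dll1- library and allow no comparison there.

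In the 4 epithelial sub-states with at least 50 cells in each library Dll1 was higher in the Dll1+ tumor in each. Spink12/Sprr1a cells had 40.9 CPM in Dll1+ and 12.9 CPM in Dll1- (log2 ratio 1.60, bounds 1.13 to 2.25). Rec8/Wap cells, led by the milk protein genes Wap, Lalba and Csn2, had 8.77 and 4.39 CPM (0.86, 0.62 to 1.36). The Ifnb1/Tfpi2 cells had 8.13 and 3.16 CPM (1.13, 0.59 to 2.07), and the Nusap1/Ube2c cells, led by genes of mitosis, had 5.41 and 2.16 CPM (1.02, 0.34 to 2.27). With these 4 sub-states weighted alike the log2 ratio was 1.34, against 3.45 over all epithelial-like cells. They held 1723 of the 8179 Dll1+ and 8671 of the 8677 Dll1- cells. The sub-states were broad. Spink12/Sprr1a cells numbered 712 in Dll1+ and 349 in Dll1-, while the Spink12-led cluster among all cells held 10 and 87. Whether a sub-state held the same kinds of cells in the 2 libraries was not tested. In barcodes under 1000 UMIs Dll1 stood at 37.9 (Dll1+) and 4.65 (Dll1-) CPM, and the part of cell-free RNA in the lower sub-states was not tested.

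**Figure D3:**
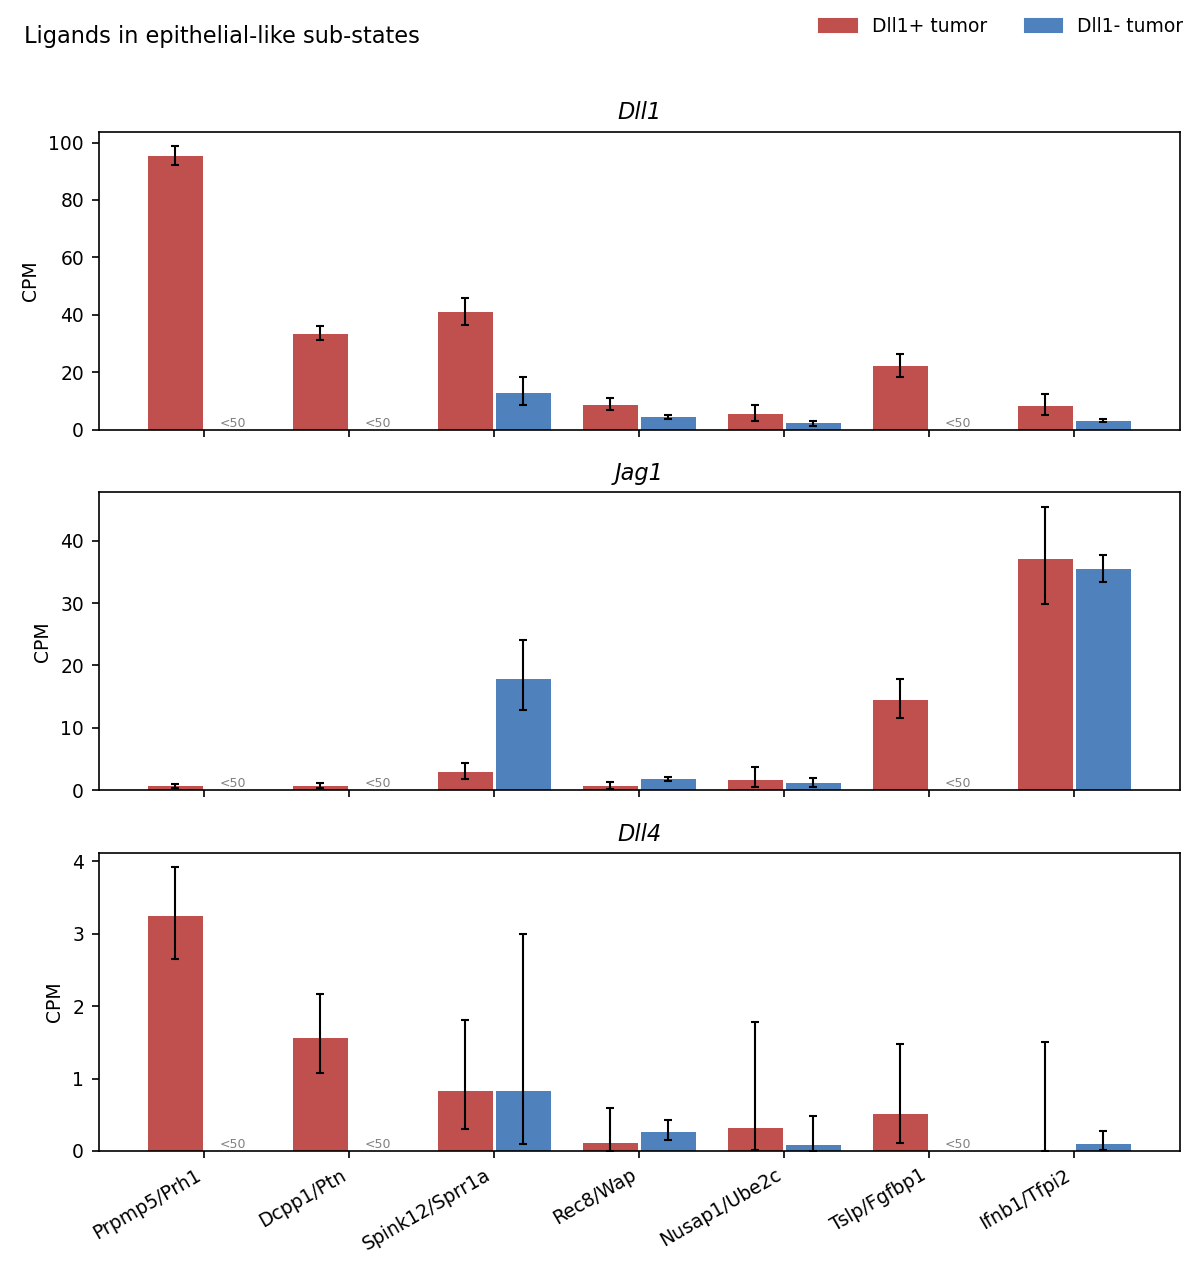
CPM of Dll1, Jag1 and Dll4 in 7 epithelial-like sub-states, Dll1+ tumor in red and Dll1- tumor in blue, 1 library each, with exact Poisson 95% intervals; "<50" marks a sub-state with fewer than 50 cells in that library, not drawn. Dll1 was higher in the Dll1+ tumor wherever both are drawn, and Jag1 in Ifnb1/Tfpi2 cells stood at 37.0 CPM in Dll1+ and 35.5 CPM in Dll1-.

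Jag1, a Jagged ligand of basal epithelium and vessel walls, had 2.99 CPM (2.63 to 3.38) in Dll1+ and 12.1 CPM (11.5 to 12.8) in Dll1- epithelial-like cells, 4.05-fold lower in Dll1+ (log2 ratio -1.72, bounds -2.22 to -1.82). Thinned to 2000 UMIs, 0.606% of Dll1+ and 2.27% of Dll1- cells had a Jag1 UMI. Most of the Dll1- signal was in 1 sub-state: the Ifnb1/Tfpi2 cells held 1112 of the 1275 UMIs. These cells numbered 223 in the Dll1+ and 3186 in the Dll1- library, and their Jag1 level was 37.0 CPM (29.8 to 45.4) in Dll1+ and 35.5 CPM (33.4 to 37.7) in Dll1-, a log2 ratio of 0.06 with bounds -0.26 to 0.37. Jag1 was itself among the 10 leading genes of this sub-state, although it was not used to form it. In Spink12/Sprr1a cells Jag1 was lower in Dll1+, at 2.91 CPM against 17.8 CPM in Dll1- (-2.27, -3.44 to -1.83), and in Rec8/Wap cells it was 0.641 and 1.75 CPM (-0.75, -2.93 to -0.28). Tslp/Fgfbp1 cells of the Dll1+ tumor had 14.5 CPM, while Prpmp5/Prh1 and Dcpp1/Ptn cells had 0.697 and 0.732 CPM. Weighting the 4 shared sub-states alike gave -0.38, with the same limit that their make-up in the 2 libraries was not tested.

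Dll4, the ligand of sprouting endothelium, was counted 152 times in Dll1+ and 22 times in Dll1- epithelial-like cells, 1.83 CPM (1.55 to 2.15) and 0.209 CPM (0.131 to 0.316). Its level was highest in Prpmp5/Prh1 cells, with 107 UMIs and 3.24 CPM (2.66 to 3.92), and in Dcpp1/Ptn cells, with 1.56 CPM. Weighting the 4 shared sub-states alike gave a log2 ratio of -0.01, against 1.23 over the whole class. Dll1+ counts there were 6 UMIs in Spink12/Sprr1a, 1 each in Rec8/Wap and Nusap1/Ube2c and 0 in Ifnb1/Tfpi2 cells. Levels were at most 0.831 CPM in either library, under the added 1 CPM, so this value cannot decide a direction. In the Prpmp5/Prh1 cells 174 Dll4 UMIs were counted per 1000 UMIs of the 12 endothelial markers. The value was 25.6 in endothelial-like cells and 41.7 in barcodes under 1000 UMIs of the same library, the latter from 12 Dll4 UMIs. The part of endothelial or cell-free RNA in the Dll4 count was not tested. No endothelial marker was at 0 in the Prpmp5/Prh1 cells, and the 12 together stood at 18.7 CPM.

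A gene lies opposite Dll4, and its counts are given beside those of Dll4. Gm14207, a non-coding transcript on the other strand of the Dll4 locus, was also highest in Prpmp5/Prh1 cells, at 9.87 CPM (326 UMIs), and stood at 2.47 CPM in Dcpp1/Ptn cells and between 0.319 and 2.08 CPM in the other drawn sub-states. Over the class it had 5.07 CPM in Dll1+ and 1.09 CPM in Dll1- epithelial-like cells, and in endothelial-like cells it had 36.6 and 37.3 CPM. Both genes had a UMI in 14 Prpmp5/Prh1 cells. Dll4 and Gm14207 were counted as separate genes, with 107 and 326 UMIs in those cells. The labels and headers do not state the strand setting, and whether reads of one gene were counted for the other was not tested. In GENCODE Dll1 overlaps A930024N18Rik on the other strand, a transcript not analysed here, and Jag1 overlaps no other gene.

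Jag2, a Jagged ligand of epidermis and endothelium, stayed low in epithelial-like cells, at 1.10 CPM (0.883 to 1.35) in Dll1+ and 1.67 CPM (1.43 to 1.94) in Dll1-. The log2 ratio was -0.35, with bounds of -0.99 to -0.24. The Ifnb1/Tfpi2 cells had 2.85 CPM in Dll1+ and 4.05 CPM in Dll1-, with overlapping intervals, and Tslp/Fgfbp1 cells of the Dll1+ tumor had 3.03 CPM. The other drawn sub-states had 1.09 CPM or less. In fibroblast-like cells Jag2 stood at 0.323 CPM in Dll1+, with an upper bound of 1.80, and at 0 in Dll1-, with an upper bound of 0.918. The epithelial-like interval overlapped that of fibroblast-like cells in the Dll1+ but not in the Dll1- library.

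In Krt5-led cells Dll1 was close in the 2 tumors, Jag1 was lower in the Dll1+ tumor and Jag2 was higher. Dll1 had 88.8 CPM in Dll1+ and 84.3 CPM in Dll1- (log2 ratio 0.07, bounds -0.16 to 0.31), and the ratio was -0.17 at a Leiden resolution of 1.2. Jag1 had 47.7 CPM (41.4 to 54.7) in Dll1+ and 170 CPM (155 to 185) in Dll1-, 3.55-fold lower in Dll1+ (-1.81, -2.07 to -1.59). Jag2 had 64.1 CPM (56.8 to 72.1) in Dll1+ and 40.5 CPM (33.6 to 48.3) in Dll1- (0.65, 0.35 to 0.98), and it stayed past 1.5-fold under 6 of 10 alternatives. The ratio was 0.44 at a Leiden resolution of 1.2 and with the ligands among the clustering genes, 0.53 with TMM library factors and 0.55 with a pseudocount of 10 CPM. A UMI of at least 1 of the 4 ligands was found in 80.1% of Dll1+ and 79.4% of Dll1- Krt5-led cells. Of 10262 genes measured in this class 24.1% lay at least 1.5-fold apart, 15.9% higher and 8.19% lower in Dll1+, and of the 3 measured ligands 1 was higher, 1 lower and 1 between.

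Jag1 was lower in the Dll1+ tumor in all 6 Krt5-led sub-states, and the bounds of each ratio lay below 0. The Hp/Cxcl9 cells had 91.4 CPM in Dll1+ and 251 CPM in Dll1- (-1.45), the Nusap1/Ccnb1 cells, led by mitosis genes, had 31.9 and 145 CPM (-2.15), and the Bmp4/Hpgds cells had 60.2 and 165 CPM (-1.44). The smallest difference was in Krt1/Cst6 cells, led by Krt1, a keratin of differentiated epidermis, with 75.3 CPM in Dll1+ and 120 CPM in Dll1- (-0.67, -1.25 to -0.14). The sub-states hold between 12 and 138 cells in a library, and their intervals are wide.

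For Jag2 the sub-states gave another picture than the class. The bounds of its ratio held 0 in each of the 6, with 82.0 CPM in Dll1+ and 59.6 CPM in Dll1- in Hp/Cxcl9 cells and 49.4 and 24.3 CPM in Ctla2a/Ccl5 cells as the largest ratios. Krt1/Cst6 cells had the least Jag2, 11.9 CPM in Dll1+ and 11.5 CPM in Dll1-, and these cells numbered 44 in the Dll1+ and 95 in the Dll1- library. Rgs5/Fgg cells, with 77.8 and 79.4 CPM, numbered 138 and 12. The mix of sub-states thus differed along with the class level, and how much of the class difference it makes up was not tested. For Dll1, Krt1/Cst6 cells stood apart, with 57.5 CPM (38.5 to 82.5) in Dll1+ and 22.0 CPM (13.6 to 33.6) in Dll1- (1.35, 0.53 to 2.27), and the bounds of the other 5 sub-states held 0.

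**Figure D4:**
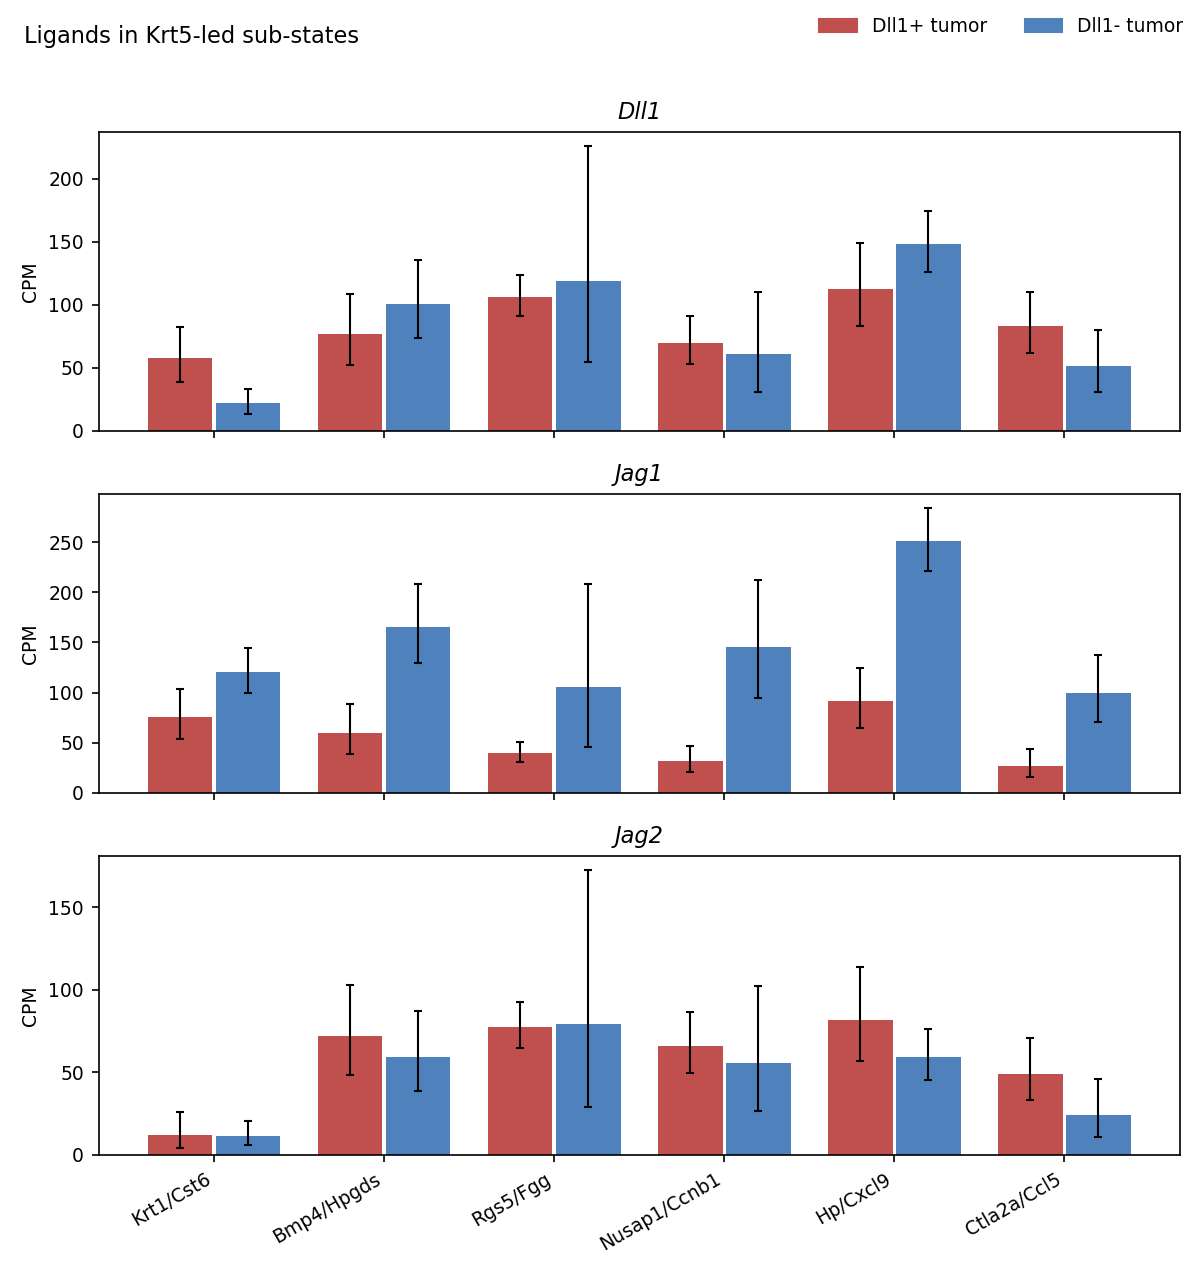
CPM of Dll1, Jag1 and Jag2 in the 6 Krt5-led sub-states, Dll1+ tumor in red and Dll1- tumor in blue, 1 library each, with exact Poisson 95% intervals. Jag1 was lower in the Dll1+ tumor in every sub-state, and the Jag2 intervals overlapped in every sub-state.

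Fibroblast-like cells expressed Jag1 and next to none of the other ligands. Jag1 had 52.4 CPM (44.6 to 61.1) in Dll1+ and 57.7 CPM (50.5 to 65.7) in Dll1- (log2 ratio -0.14, bounds -0.44 to 0.16), and a UMI was found in 10.0% of Dll1+ and 11.9% of Dll1- cells after thinning. Of 10129 genes measured here 13.9% lay at least 1.5-fold apart, 8.58% higher and 5.27% lower in Dll1+, and the single measured ligand did not. Unc5b/Cdkn2b cells had 64.9 CPM in Dll1+ and 144 CPM in Dll1- (-1.13, -1.69 to -0.58), and the bounds of the other 3 sub-states held 0. Those cells made up 123 of the 332 Dll1+ but 43 of the 573 Dll1- fibroblast-like cells.

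Pericyte-like cells had Jag1 at 110 CPM (93.0 to 130.2) in Dll1+ and 66.2 CPM (48.1 to 88.9) in Dll1-, a log2 ratio of 0.73 with bounds of 0.24 to 1.26. Of 7014 genes measured 25.5% lay at least 1.5-fold apart, 19.3% higher and 6.19% lower in Dll1+, and Jag1 was the 1 measured ligand. Ddit4l/Galnt16 cells, 119 in Dll1+ and 28 in Dll1-, had 154 and 97.9 CPM, and Igfbp2/Cgref1 cells, 36 and 79, had 75.1 and 57.6 CPM. Hist1h2ae/Hist1h2ap cells, 30 and 12, went the other way, with 58.0 and 67.9 CPM. The bounds of the ratio held 0 in each of these sub-states. Ddit4l/Galnt16 cells had the highest level and were the largest sub-state in the Dll1+ library, and the part of sub-state make-up in the class ratio was not tested. The class ratio depended on the class boundary. A Krt15/Lalba sub-state led by epithelial genes had been moved out of the class and had 120 CPM in Dll1+ and 203 CPM in Dll1-. A Saa3/Lum sub-state of 86 Dll1+ and 3 Dll1- cells, with the fibroblast markers Lum and Dcn among its leading genes, had been moved out too. With these mixed sub-states kept in, the class ratio was -0.23, and with the ligands among the clustering genes it was -0.04. It stayed past 1.5-fold under 3 of 10 alternatives. It was 0.12 with at most 10% mitochondrial UMIs, 0.25 without barcodes found in both libraries, 0.33 with doublets left in, 0.44 thinned to 2000 UMIs and 0.57 with TMM factors.

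Endothelial-like cells carried all 4 ligands. Dll4 had 279 CPM (252 to 308) in Dll1+ and 224 CPM (199 to 251) in Dll1- (log2 ratio 0.32, bounds 0.10 to 0.54), below the 1.5-fold mark, and 39.8% of Dll1+ and 32.6% of Dll1- cells had a Dll4 UMI after thinning. Jag2 had 79.4 and 76.1 CPM (0.06, -0.34 to 0.46), and Dll1 had 29.5 and 24.4 CPM (0.27, -0.42 to 0.99). Jag1 had 45.7 CPM (35.3 to 58.2) in Dll1+ and 69.3 CPM (55.8 to 85.1) in Dll1-, 1.52-fold lower in Dll1+ (-0.59, -1.08 to -0.13). Of 7891 genes measured 14.5% lay at least 1.5-fold apart, 10.1% higher and 4.36% lower in Dll1+, and Jag1 was the 1 of 4 ligands past the mark. It stayed past it under 3 of 10 alternatives and was between -0.65 and -0.33 over them, always lower in Dll1+.

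The ligands were unequal among the endothelial-like sub-states. The Rgs5/Acta2 cells, whose leading genes also include the arterial gene Gja5 beside the mural genes Rgs5 and Acta2, had the highest Jag2 value, 134 CPM (104 to 170) in Dll1+ and 172 CPM (113 to 251) in Dll1-, overlapping the Tent5a/Itpkc cells with 83.3 and 95.5 CPM. The part of RNA of mural cells in these values was not tested. They and the Tent5a/Itpkc cells had the most Dll4, at 381 and 293 CPM in Rgs5/Acta2 cells and 321 and 364 CPM in Tent5a/Itpkc cells. Ccl21a/Mmrn1 cells had the lymphatic markers Ccl21a, Mmrn1, Reln and Lyve1 and the venous marker Ackr1 among their leading genes. They had less Dll4 than these cells, 92.3 CPM (57.8 to 140) in Dll1+ and 124 CPM (94.5 to 161) in Dll1-, and less Jag2, 16.8 and 45.1 CPM. Low levels were not particular to them: Ccnb1/Prc1 cells had 16.9 and 25.2 CPM of Jag2 and, in Dll1-, 55.5 CPM of Dll4. Jag1 was lower in the Dll1+ tumor in Tent5a/Itpkc cells, with 41.6 CPM against 85.3 CPM in Dll1- (-1.02, -1.92 to -0.21), and in Ccl21a/Mmrn1 cells, with 29.4 and 70.8 CPM (-1.24, -2.69 to -0.07). In Ccnb1/Prc1 cells, led by mitosis genes, Dll4 had 169 CPM in Dll1+ and 55.5 CPM in Dll1- (1.59, 0.62 to 2.72), from 23 and 20 cells. The bounds of the Dll4 ratio held 0 in the other 3 sub-states.

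**Figure D5:**
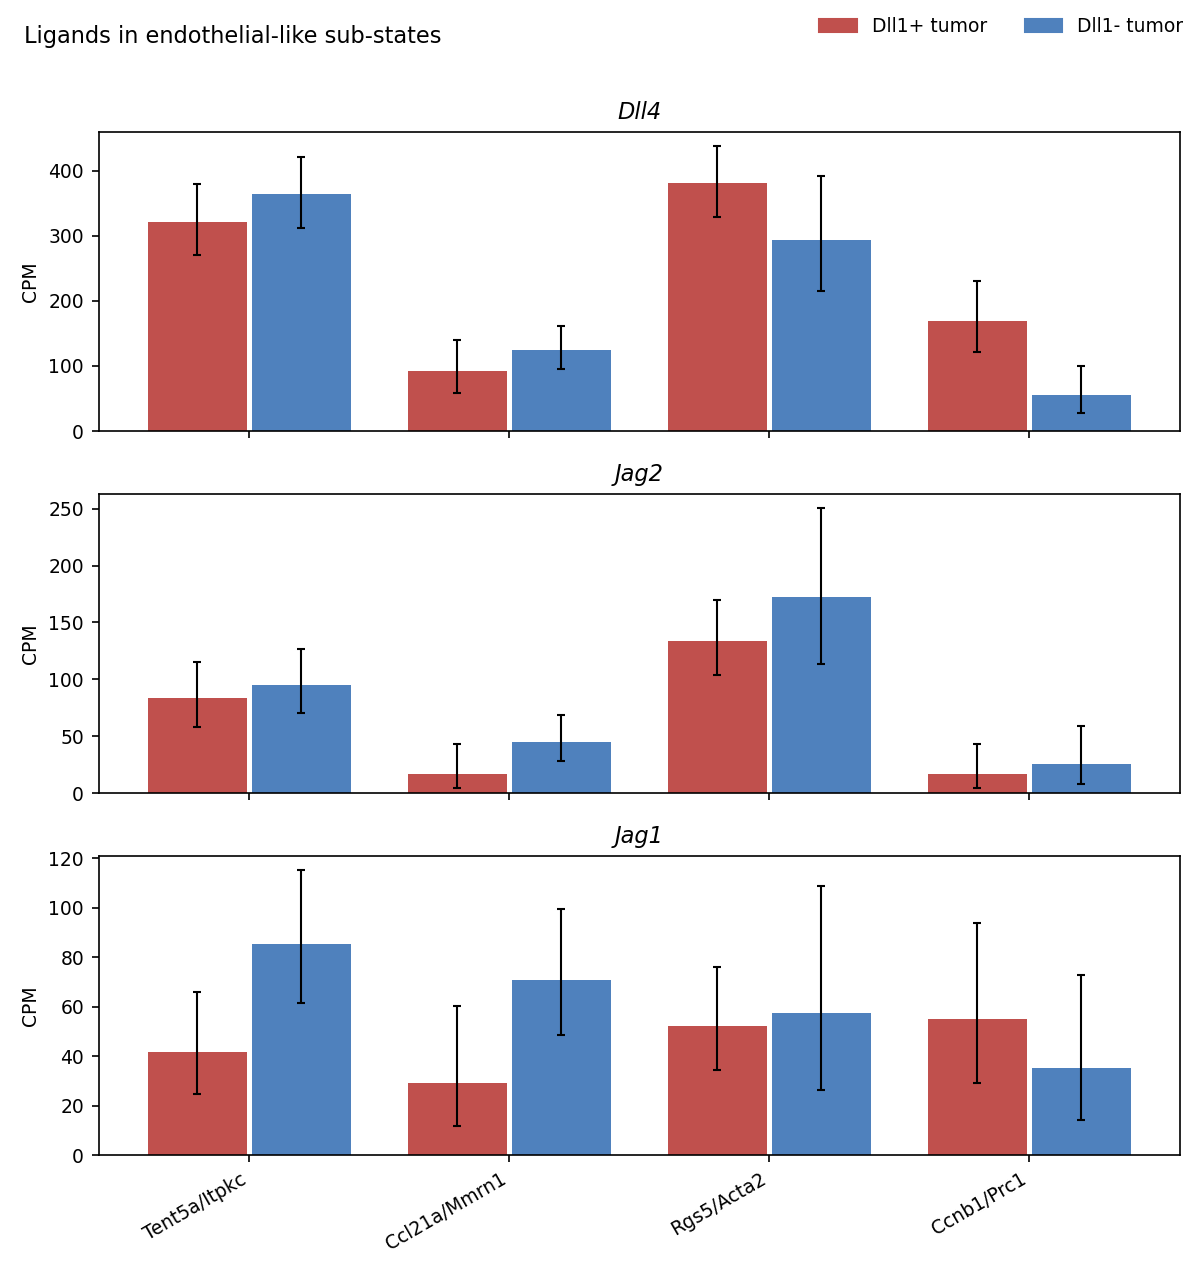
CPM of Dll4, Jag2 and Jag1 in the 4 endothelial-like sub-states, Dll1+ tumor in red and Dll1- tumor in blue, 1 library each, with exact Poisson 95% intervals. Dll4 and Jag2 were lower in Ccl21a/Mmrn1 cells than in Rgs5/Acta2 and Tent5a/Itpkc cells in both tumors, and so they were in Ccnb1/Prc1 cells.

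At full depth, UMIs of different ligands were seldom found in 1 epithelial-like cell and often in 1 Krt5-led or endothelial-like cell. In the latter classes a UMI of any ligand was also found in a larger share of cells. Cells with UMIs of both Dll1 and Jag1 numbered 29 of 8179 in Dll1+ and 27 of 8677 in Dll1- epithelial-like cells. In the Dll1+ library, thinned to 2000 UMIs, 0 of 834 cells with a Dll1 UMI had a Jag1 UMI (0 to 0.441%), against 0.681% (0.499 to 0.908) of cells without one. In the Dll1- library 3 of 69 cells with a Dll1 UMI had a Jag1 UMI (4.35%, 0.906 to 12.2), against 2.26% (1.95 to 2.60) of the rest, and these intervals overlap. In the Dll1+ library Prpmp5/Prh1 cells, the sub-state with the most Dll1, were also among those with the least Jag1. Dll1 and Jag2 were found together in 101 of 332 Dll1+ and 51 of 315 Dll1- Krt5-led cells, and Dll1 and Jag1 in 69 and 90. Thinned to 2000 UMIs, 10 of 54 Dll1+ Krt5-led cells with a Dll1 UMI had a Jag2 UMI (18.5%), against 46 of 270 without one (17.0%). In the Dll1- library these counts were 4 of 40 and 20 of 266. For Jag1 they were 2 of 54 (3.70%) and 35 of 270 (13.0%) in Dll1+, and 14 of 40 and 79 of 266 in Dll1-. The intervals overlapped in each of these comparisons. In endothelial-like cells Dll4 and Jag2 were found together in 56 of 256 Dll1+ and 40 of 280 Dll1- cells. After thinning, Jag2 was found in 26.1% of Dll1+ cells with a Dll4 UMI (17.3 to 36.6) and 13.5% of those without (8.22 to 20.5), intervals that overlap.

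The receptors that answer these ligands stood as follows. In epithelial-like cells Notch1 was at 101 CPM in Dll1+ and 60.2 CPM in Dll1- (log2 ratio 0.74), and Notch3 at 15.9 and 8.24 CPM (0.87), so 2 of 4 receptors were at least 1.5-fold higher and 0 were lower. Over all genes measured in this class 20.6% were higher and 5.91% lower. With TMM factors the Notch1 ratio was 0.49, under the mark. In Krt5-led cells all 3 measured receptors were at least 1.5-fold lower in Dll1+: Notch1 had 76.3 and 140 CPM (-0.87), Notch2 had 13.1 and 26.0 CPM (-0.93) and Notch3 had 6.92 and 13.8 CPM (-0.91). Over all genes of the class 8.19% were lower. Notch2 was lower in Dll1+ fibroblast-like cells, at 51.7 CPM against 84.9 CPM in Dll1- (-0.70). In pericyte-like cells Notch3, the mural receptor, had 442 CPM in Dll1+ and 300 CPM in Dll1- (0.56), and Notch1 had 48.2 and 30.1 CPM (0.66, bounds -0.07 to 1.49), a ratio of 0.50 with TMM factors. In endothelial-like cells Notch1 (213 and 184 CPM) and Notch4 (148 and 130 CPM) differed by less than 1.5-fold between Dll1+ and Dll1-.

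Of the 8 ligand uptake genes, which endocytose ligands in the sending cell, 5 were measured in endothelial-like cells, of which 2 stood at least 1.5-fold higher in Dll1+ and 0 lower: Epn2, an endocytic adaptor, had 47.1 and 26.6 CPM, and Neurl1b, a ubiquitin ligase, had 40.1 and 25.1 CPM. Over all genes of the class 10.1% were higher and 4.36% lower. In pericyte-like cells 1 of 4 measured was higher, again Epn2, with 66.1 and 42.1 CPM (0.64, or 0.47 with TMM factors). Over the pathway lists other than the 4 ligands, pericyte-like cells had 5 of 29 measured genes higher and 0 lower, and with TMM factors 2 and 1. The share over all genes of the class was 19.3% higher and 6.19% lower. In epithelial-like cells 1 of 8 ligand uptake genes was higher and 0 were lower, against 20.6% and 5.91% of all genes of the class. In Krt5-led and fibroblast-like cells 0 of 4 were past the mark in either direction. Over all genes 15.9% were higher and 8.19% lower in Krt5-led cells, and 8.58% and 5.27% in fibroblast-like cells. Of the 9 other ligands, Dlk1, a non-canonical ligand, had 89.4 CPM in Dll1+ and 19.6 CPM in Dll1- pericyte-like cells (2.14, from 115 and 13 UMIs), and Mfap2, a microfibril protein, had 405 and 249 CPM in fibroblast-like cells (0.70).

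Of the 7 genes of receptor cleavage, Aph1a, a gamma-secretase subunit, had 101 CPM in Dll1+ and 58.1 CPM in Dll1- epithelial-like cells (0.78, or 0.54 with TMM factors), Psen2, another subunit, had 27.4 and 12.9 CPM in endothelial-like cells, and Adam10, the first protease, had 100.3 and 66.2 CPM in pericyte-like cells (0.59, or 0.43 with TMM factors). Rbpj, which carries the active receptor to DNA, was lower in Dll1+, with 39.6 and 63.2 CPM in epithelial-like cells (-0.66) and 103 and 176 CPM in fibroblast-like cells (-0.76). In Krt5-led cells it was the other way, with a ratio of 0.55 (bounds 0.27 to 0.84) from 319 Dll1+ and 152 Dll1- UMIs, short of 1.5-fold. Dtx3, of the Deltex family, had 49.7 and 22.4 CPM in epithelial-like cells (1.11), and Numb, an inhibitor of Notch, had 24.1 and 12.0 CPM in pericyte-like cells from 31 and 8 UMIs (0.94, bounds -0.15 to 2.33).

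Among the 8 target genes, 3 of the 6 measured in epithelial-like cells were at least 1.5-fold higher and 1 was lower: Hes1, a repressor that Notch induces, had 174 CPM in Dll1+ and 58.1 CPM in Dll1- (1.57), and Gata3, a luminal transcription factor, had 39.2 and 68.6 CPM (-0.79). The share over all genes of the class was 20.6% higher and 5.91% lower. Nrarp, which Notch induces and which dampens it, was lower in Dll1+ Krt5-led cells, at 9.68 CPM against 24.4 CPM in Dll1- (-1.25), and higher in Dll1+ endothelial-like cells, at 153 CPM against 80.7 CPM (0.92).

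The genes whose levels were most like each ligand's over the 10 class and library sums were found by Pearson correlation of log2 of CPM plus 1, among 8715 genes. The sums share 2 libraries, so r is a description. For Dll1 they were Pkp4 (0.94), Limk2 (0.93) and Gtf2f1 (0.93). For Dll4 they were Mfng (0.997), Ipo11 (0.997) and Pcdh17 (0.995). Mfng, a Fringe that modifies Notch receptors, had 111 CPM in Dll1+ and 137 CPM in Dll1- endothelial-like cells and at most 1.17 CPM elsewhere. For Jag1 they were Bicd2 (0.92), Tubb3 (0.91) and Acvr1 (0.89), and for Jag2 they were St8sia6 (0.97), Alox12 (0.96) and Tsc22d1 (0.96).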

How the data were processed

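The authors deposited raw UMI counts per gene and barcode for both libraries. Per the file headers the software was Cell Ranger 4.0.0, and mm10 is named in the submitters' processing notes. The strand and intron settings and the annotation release were not found in the labels or headers. Every deposited barcode had at least 500 UMIs. Barcodes were kept with at least 1000 UMIs, 500 genes and at most 20% mitochondrial UMIs, which 10581 Dll1+ and 11121 Dll1- barcodes passed. The automatic doublet threshold of scrublet marked 0 barcodes in either library, so the highest-scoring 0.8% per 1000 barcodes were removed, 896 and 989. Cells were clustered in Python 3.11.15 (scanpy 1.11.5, with Leiden from leidenalg 0.10.2), leaving out the 4 ligands. Clusters were named "-like" where 3 or more markers, making up 50% or more of a list, were each found in at least 20% of cells. Sub-states were moved out where a marker list of another cell type outnumbered the class's own lists among the leading genes. Those with few UMIs per cell and no own marker among the leading genes were moved out too. A lone leading marker from a list did not move a sub-state, so Rgs5/Acta2 and Rgs5/Fgg cells stayed in their classes. Cells in no named class numbered 379 in the Dll1+ and 163 in the Dll1- library.

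UMIs were summed per class and library. A ratio is the log2 difference of CPM with 1 added, Dll1+ minus Dll1-. Intervals are exact Poisson for levels, Clopper-Pearson for shares and conditional binomial for ratios, and cover counting error only. A count of 0 allows up to 3 counts. A gene was measured in a class with at least 30 UMIs over both libraries. Named pathway genes had at least 20 CPM in 1 library and a 1.5-fold difference, with receptors named in every class, and the 3 genes most like each ligand were named. The steps used scipy 1.17.1, numpy 2.4.6, matplotlib 3.10.9 and pandas 2.3.3, with TMM factors from edgeR 4.0.16 in R 4.3.3, and were tested on simulated data. Alternatives changed doublet removal, shared barcodes, resolution, the mitochondrial limit, scaling, pseudocount, depth, clustering genes, mixed cells and sub-state make-up. The members, lists and tests were chosen with earlier results of these data known, and the rule for naming clusters was set after the data were seen.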

Additional observations from a re-analysis of the deposited data

Results flagged for a closer look

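Jag1 differed in direction between classes. Its log2 ratio of Dll1+ over Dll1- was 0.73 in pericyte-like cells, while it was -1.72 in epithelial-like, -1.81 in Krt5-led and -0.59 in endothelial-like cells. Jag2 had a ratio of 0.65 in Krt5-led and -0.35 in epithelial-like cells. These differences between classes were not tested, since each group is 1 library, and the pericyte-like ratio depends on which sub-states are kept in the class.

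Ligand UMIs were also counted in cells and barcodes that no comparison uses. Macrophage-like cells of the Dll1+ tumor, 22 in number, held 8 Jag1 UMIs. Unnamed or mixed cells held 112 Jag1, 51 Dll1, 10 Dll4 and 4 Jag2 UMIs in the Dll1+ library, and 100 Jag1 and 4 Dll1 UMIs in the Dll1- library. Barcodes under the UMI minimum held 41 Dll1, 17 Jag2, 12 Dll4 and 7 Jag1 UMIs in the Dll1+ library, and 4 Dll1, 16 Jag2, 18 Dll4 and 19 Jag1 UMIs in the Dll1- library.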

How the results depend on the processing

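No paired analysis was possible because each group is 1 library, and no library could be left out. All ratios are log2, Dll1+ over Dll1-. TMM factors shift the log2 ratio of CPM by -0.25 in epithelial-like, -0.17 in pericyte-like, -0.12 in Krt5-led, -0.07 in endothelial-like and -0.04 in fibroblast-like cells, and by less for low genes once 1 is added. Of the values that answer a comparison, 122 stayed, 31 moved further and 3 reversed. A ratio stayed if it lay no further from the reported value than a bound of its interval lies from the interval's centre. Counts of genes stayed if within 1.5-fold, and only a ratio past 1.5-fold as reported counts as reversed. Of the other values 78 stayed, 1 moved and 1 reversed.

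Jag1 in pericyte-like cells, 0.73 as reported, reversed to -0.23 with mixed sub-states kept in their class, an alternative chosen after seeing the data, and to -0.039 with the ligands among the clustering genes. It was 0.12 with at most 10% mitochondrial UMIs and 1.28 in the cells with the fewest markers of other classes. Dll4 in epithelial-like cells, 1.23 as reported, reversed to -0.0061 with shared sub-states weighted alike and was 0.21 with a pseudocount of 10 CPM. The weighted value came from at most 6 Dll4 UMIs in a Dll1+ sub-state and does not resolve a direction. Dll1 in pericyte-like cells reversed to -0.36 at 10% mitochondrial UMIs, from 2 UMIs in each library. Of 5 main ratios under 1.5-fold as reported, 3 changed sign under at least 1 setting, 5 times in all: Dll1 in Krt5-led, Jag2 in endothelial-like and Jag1 in fibroblast-like cells.

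Dll1 in epithelial-like cells was 3.23 with TMM factors, 3.91 in cells with the fewest other markers, 2.18 with a pseudocount of 10 and 1.34 with shared sub-states weighted alike. Jag1 there was -1.92, -1.17, -0.77 and -0.38 under the same settings, and -1.98 at 10% mitochondrial UMIs. A Leiden resolution of 1.2 and ligands among the clustering genes each gave -0.17 for Dll1 and -2.05 for Jag1 in Krt5-led cells. Cells with the fewest other markers gave -1.47 for Jag1 in Krt5-led, 0.85 for Dll4 and 0.52 for Jag2 in endothelial-like cells. Thinning to 2000 UMIs gave 1.03 for Jag2 in Krt5-led and -0.80 in epithelial-like cells, and the share of Krt5-led cells with Jag2 had a ratio of 0.30 at 1000 UMIs. With doublets left in, Dll1 in endothelial-like cells was 1.00.

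Pathway genes past 1.5-fold are given as higher and lower counts, without a minimum of UMIs and then as reported. Krt5-led cells had 6 and 5 of 46, against 3 and 4 of 33. Endothelial-like cells had 9 and 3 of 44, against 4 and 0 of 29. Fibroblast-like cells had 7 and 5 of 44, against 2 and 2 of 30. Pericyte-like cells had 11 and 2 of 45, against 5 and 0 of 29. The shares over all genes given above hold for the reported minimum, and none was computed without it. TMM factors gave 2 higher and 1 lower in pericyte-like cells. Except where a setting's own construction shows it, the cause was not tested. Without replicates no difference can be set against the spread between tumors, and Krt5-led sub-states of 12 to 138 cells per library limit what counting can show.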
